A study of Mus musculus with 2 samples.

Results

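The G2 and mitosis genes described here were 40 genes given as a list of symbols, and all 40 were found among the 27998 genes of the count matrix. They were read in single multipotent progenitors (MPPs), early blood-forming cells of the bone marrow that can still become lymphoid or myeloid cells. The series held 1 C57BL/6 Spp1-/- sample, which lacks the gene of the secreted protein osteopontin, and 1 C57BL/6 WT sample. Mice of both genotypes had received thioglycollate, an irritant, into the peritoneum 20 hours earlier, and the cells were sorted as Lin–Sca-1+c-kit+CD34+ with a further gate written Flt3L+ in the labels. The number of mice behind each sample is not stated in the labels. Both samples were sequenced with a droplet 3′ assay in which each counted molecule carries a tag (unique molecular identifier, UMI). The counts of both came in 1 matrix, in which 2 barcode suffixes mark the libraries. Neither the labels nor the files say which suffix belongs to which genotype, so the suffixes name them here, as library 2 and library 1. Ratios have library 2 on top, and which genotype was higher cannot be read from them. With 1 library each there is no replicate, so all intervals are 95% intervals that cover counting error only.

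A cell that has copied its DNA passes through G2 phase and enters mitosis when cyclin B and the kinase Cdk1 become active. Chromosomes then attach to the spindle under the watch of a checkpoint, the anaphase-promoting complex marks securin and cyclin B for destruction, and the cell divides by cytokinesis. Transcripts of most of these proteins are made late in the cycle, under the transcription factor Foxm1 and the MuvB complex, and they mark dividing progenitors in bone marrow, whereas the deepest stem cells divide rarely.

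Library 2 kept 4570 of 4572 barcodes and library 1 kept 3253 of 3312, under a filter of at least 500 genes and under 10% mitochondrial UMIs. The libraries differed in depth, with 18750468 UMIs in all and a median of 3836 per cell in library 2, against 10118499 and 2830 in library 1. Ribosomal protein genes took a median of 34.6% of a cell's UMIs in library 2 and 38.5% in library 1, and mitochondrial genes 0.506% and 0.475% in the same order. The transcripts of the sorting markers were present in both, with Kit at 36.6 and 36.1 counts per 1000000 UMIs (CPM), Ly6a (Sca-1) at 293.9 and 311.1, Cd34 at 456.9 and 413.4 and Flt3 at 141.4 and 122.4 in library 2 and library 1. Of markers of other cell types, the 7 dendritic cell markers were all detected in both and summed to 238.7 CPM in library 2 and 799.0 CPM in library 1. Summed neutrophil markers stood at 38.3 and 21.8 CPM and erythroid markers at 53.4 and 104.8 CPM, while Cd3e, Cd3g and Prss34 had no UMI in either library. B cell markers summed to 74.2 CPM in library 2 and 68.3 CPM in library 1, T and NK cell markers to 319.5 and 298.9 (Nkg7 alone 319.4 and 298.9), mast cell and basophil markers to 11.9 and 10.8, megakaryocyte markers to 12.4 and 12.1 and stromal markers to 28.6 and 30.7. Among cells thinned at random to 2000 UMIs, 47 in library 2 and 52 in library 1 held at least 5 dendritic marker UMIs, and 9 and 4 of these were among the high cells defined below. The part of these other transcripts in the results was not tested. Between the libraries 32 barcode sequences were shared, and no cell was removed as a doublet.

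All 40 genes had a higher level in library 2 than in library 1, and all 40 lay above the median of all genes. Summed over the list, they made up 4188.3 CPM (4159 to 4218) in library 2 and 2569.2 CPM (2538 to 2601) in library 1, a log2 ratio of 0.71 (0.68 to 0.73). The median log2 ratio of the genes was 0.75, against 0.11 over the 10099 genes that passed a minimum of 50 UMIs, with a UMI in each library. At least 1.5-fold higher in library 2 were 32 of the 40, against 4.79% of all genes tested, and at least 2-fold higher were 5 of the 40, against 1.02%. None was 1.5-fold lower, against 2.46% of all genes. The ratios ran from 0.46 for Top2a to 1.04 for Ccnb1, so the list did not move as a block. A summed level does not tell more cells with these transcripts from more transcripts per cell, which is taken up with the cells below. Of the 40 genes, 38 shared no 50-base stretch of their last 300 bases with another gene. Cenpf shared 14.3% of these stretches and Tpx2 1.20%, so their counts are less certain.

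**Figure D1:**
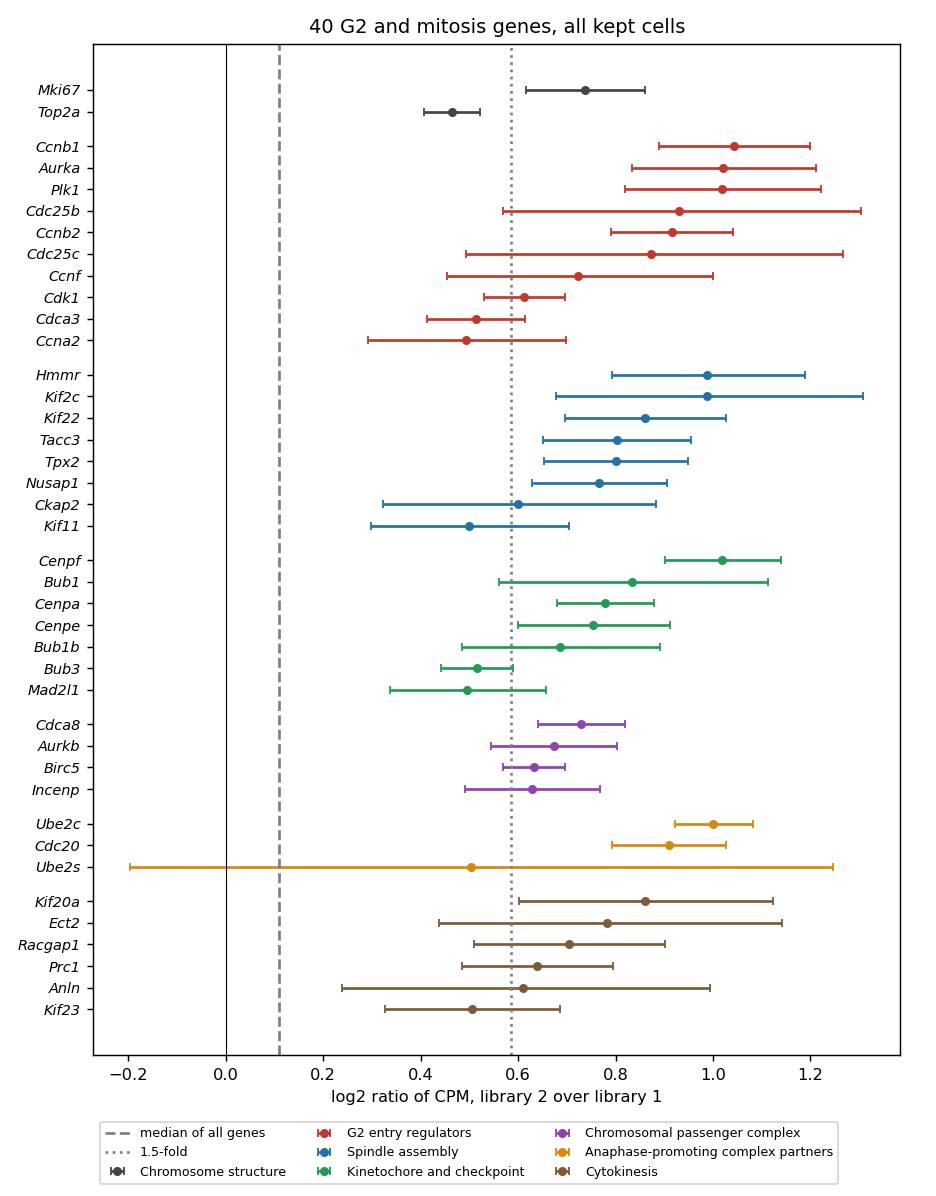
Log2 ratio of CPM, library 2 over library 1, for each of the 40 genes (points, with exact conditional Poisson 95% intervals as bars), grouped by role, over all kept cells. The dashed line is the median of all genes (0.11), the dotted line 1.5-fold. All 40 points lie right of the dashed line, from 0.46 for Top2a to 1.04 for Ccnb1, and the bar of Ube2s alone reaches below 0.

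Promoters of many late cell cycle genes are known to share a pair of short elements, so the 150 bases before the start are shown for the 3 genes with the largest ratios that have an entry among the RefSeq promoters (GRCm38.p6), and for the gene with the smallest. All 4 genes lie on the minus strand, at chr13:100786487-100786636 for Ccnb1, chr2:172370571-172370720 for Aurka, chr1:189688087-189688236 for Cenpf and chr11:99024190-99024339 for Top2a. Capitals mark CCAAT, the letters bound by the factor NF-Y, with its reverse ATTGG, and TTTGAA, the core of the element named CHR that the MuvB complex binds, with its reverse TTCAAA.
Ccnb1: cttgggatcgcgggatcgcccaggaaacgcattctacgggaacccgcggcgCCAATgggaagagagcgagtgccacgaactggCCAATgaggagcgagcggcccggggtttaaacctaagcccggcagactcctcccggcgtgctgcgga
Aurka: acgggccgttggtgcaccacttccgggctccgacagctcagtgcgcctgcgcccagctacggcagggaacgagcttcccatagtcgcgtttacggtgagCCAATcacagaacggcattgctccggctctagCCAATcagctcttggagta
Cenpf: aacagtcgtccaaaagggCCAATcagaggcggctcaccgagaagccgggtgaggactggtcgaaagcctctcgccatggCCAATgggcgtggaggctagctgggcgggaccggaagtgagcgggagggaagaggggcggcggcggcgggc
Top2a: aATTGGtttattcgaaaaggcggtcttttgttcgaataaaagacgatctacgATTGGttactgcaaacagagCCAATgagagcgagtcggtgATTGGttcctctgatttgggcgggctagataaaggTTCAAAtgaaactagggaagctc
In these 150 bases Ccnb1, Aurka and Cenpf each held 2 CCAAT matches, all read in the forward direction, and no TTTGAA. The first base of the match nearer to the start lay 67 bases before it in Ccnb1, 19 in Aurka and 71 in Cenpf. Top2a held 4 matches, 1 forward and 3 reversed, and 1 reversed TTTGAA that began 23 bases before the start. In the whole window of 250 bases before to 50 after the start, Aurka and Cenpf also held a TTTGAA. Of the 40 genes, 34 had an entry, with 37 windows because Bub3, Ect2 and Prc1 have 2 starts. CCAAT on either strand occurred in 30 of these 37 windows (81.1%), against 37.4% of the 32851 windows of all genes, and TTTGAA in 28 (75.7%), against 17.9%. Both occurred in 26 (70.3%), against 6.95% of all windows. Matches of the 2 motifs can share a base at their edges, and a match describes letters, not a bound site.

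Among the 10 regulators of G2 and mitotic entry, 8 were at least 1.5-fold higher in library 2, and the median log2 ratio was 0.89. Ccnb1, the cyclin that activates Cdk1 for mitosis, had 87.1 CPM in library 2 and 42.3 CPM in library 1, a log2 ratio of 1.04 (0.89 to 1.20). Ccnb2, the other B cyclin of this stage, had 125.1 and 66.3 CPM (0.92, 0.79 to 1.04). Aurka, a kinase of the spindle poles that helps to start mitosis, stood at 59.1 and 29.2 CPM (1.02, 0.83 to 1.21). Plk1, the kinase that acts with it, stood at 51.8 and 25.6 CPM (1.02, 0.82 to 1.22). The phosphatases that release Cdk1 from inhibition, Cdc25b and Cdc25c, had log2 ratios of 0.93 (0.57 to 1.30) and 0.87 (0.49 to 1.27). Ccnf, a substrate receptor of an SCF ubiquitin ligase, was at 0.72. The kinase itself, Cdk1, had 241.0 CPM in library 2 and 157.6 CPM in library 1 (0.61, 0.53 to 0.70). Under 1.5-fold were Cdca3, which promotes loss of the Cdk1 inhibitor Wee1, at 0.51 (0.41 to 0.61) and Ccna2, the cyclin of S and G2 phase, at 0.49 (0.29 to 0.70). The intervals of Ccna2 and Cdca3 do not reach those of Ccnb1, so the cyclins of this group differed among themselves by more than counting error.

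Of the genes of chromosome structure, Top2a, the enzyme that untangles DNA, had the smallest ratio of the list, with 455.7 CPM in library 2 and 330.4 CPM in library 1 (0.46, 0.41 to 0.52). Mki67, whose protein coats mitotic chromosomes and serves as the usual mark of cycling cells, had 119.4 and 71.6 CPM (0.74, 0.62 to 0.86). Their intervals do not overlap.

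The 8 spindle genes had a median of 0.80, with 7 at least 1.5-fold higher in library 2. Hmmr, a microtubule-binding protein, had 52.7 CPM in library 2 and 26.6 CPM in library 1 (0.99, 0.79 to 1.19). Kif2c, a kinesin that takes microtubules apart at centromeres, had 21.2 and 10.7 CPM (0.99, 0.68 to 1.31). Kif22, a kinesin on chromosome arms, was at 0.86, Tacc3, which strengthens kinetochore fibres, at 0.80, Tpx2, the activator of Aurora A, at 0.80 and Nusap1, which binds microtubules near chromatin, at 0.77. Ckap2 was at 0.60 (0.32 to 0.88). Kif11, the kinesin that pushes the poles apart, was the lowest with 39.0 and 27.6 CPM (0.50, 0.30 to 0.70).

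The 7 genes of the kinetochore and its checkpoint had a median of 0.75, and 5 were at least 1.5-fold higher. Cenpf, a large protein of the outer kinetochore, led them with 146.2 CPM in library 2 and 72.1 CPM in library 1 (1.02, 0.90 to 1.14). The checkpoint kinase Bub1 was at 0.83, Cenpa, the histone H3 variant of centromeres, at 0.78 (0.68 to 0.88), the kinesin Cenpe at 0.75 and Bub1b (BubR1) at 0.69. The remaining checkpoint proteins were lower, with Bub3, which binds Bub1 and BubR1, at 292.1 and 204.3 CPM (0.52, 0.44 to 0.59) and Mad2l1, which holds back Cdc20, at 61.9 and 43.9 CPM (0.50, 0.34 to 0.66).

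The 4 subunits of the chromosomal passenger complex, which corrects wrong attachments and later acts at the cleavage site, lay close together. Cdca8 (borealin) had a log2 ratio of 0.73 (0.64 to 0.82), the kinase Aurkb 0.67 (0.54 to 0.80), Birc5 (survivin) 0.63 (0.57 to 0.70) and the scaffold Incenp 0.63 (0.49 to 0.77). Birc5 had 413.9 CPM in library 2 and 266.8 CPM in library 1. All 4 intervals overlap, and all 4 genes were at least 1.5-fold higher in library 2.

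Of the 3 partners of the anaphase-promoting complex, 2 were at least 1.5-fold higher in library 2. Ube2c, the enzyme that starts ubiquitin chains on its substrates, had 319.0 CPM in library 2 and 159.4 CPM in library 1 (1.001, 0.92 to 1.08). Cdc20, the activator that recruits those substrates, had 143.8 and 76.6 CPM (0.91, 0.79 to 1.03). Ube2s, which extends the chains, had only 63 UMIs in library 2 and 24 in library 1. Its log2 ratio of 0.50 has an interval from -0.20 to 1.25, so no difference was detectable at this depth. That interval also holds the ratios of Ube2c and Cdc20.

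The 6 genes of cytokinesis had a median of 0.67, and 5 were at least 1.5-fold higher in library 2. Kif20a, a kinesin of the central spindle, had 28.7 CPM in library 2 and 15.8 CPM in library 1 (0.86, 0.60 to 1.12). Ect2, the exchange factor that switches on RhoA at the cell equator, was at 0.78, Racgap1 of the centralspindlin complex at 0.70, Prc1, which bundles midzone microtubules, at 0.64 and the ring scaffold Anln at 0.61. Kif23, the motor of centralspindlin, was the lowest with 49.8 and 35.1 CPM (0.51, 0.33 to 0.69).

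G2 entry and late mitotic genes were then set side by side, the late group being the partners of the anaphase-promoting complex with the genes of cytokinesis (9 genes). The median log2 ratio was 0.89 over the 10 entry genes and 0.70 over the 9 late genes, with 8 and 7 of them at least 1.5-fold higher. Their summed levels gave the opposite order. Late genes summed to 689.4 CPM in library 2 and 380.1 CPM in library 1 (0.86, 0.81 to 0.91), and entry genes to 812.5 and 488.2 CPM (0.73, 0.69 to 0.78). Ube2c and Cdc20 carry most of the late sum, while Cdk1 and Cdca3, with low ratios, weigh on the entry sum. Which of the 2 groups moved more therefore depended on how the genes were weighted.

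Genes of the same processes outside the list moved less. Of 67 further G2 and mitosis genes, 66 were measured, their median log2 ratio was 0.57, 29 were at least 1.5-fold higher in library 2 (4.79% of all genes) and 62 lay above the median of all genes. Fam64a (1.003, 0.80 to 1.21), the Cdk-binding gene Cks2 (0.96, 0.83 to 1.096), Troap (0.91) and Ska3 of the outer kinetochore (0.89) were highest among those with at least 200 UMIs. The lowest of these were Cenpw of the centromere at -0.13 and Pkmyt1, a kinase that inhibits Cdk1, at -0.23. Of 16 genes of the anaphase-promoting complex and its regulators 1 passed 1.5-fold, the inhibitor gene Fbxo5 at 0.67, and their median was 0.17. Fzr1, Anapc4 and Anapc5 lay at 0.38, 0.35 and 0.34, with Anapc11 at -0.044 and Anapc13 at -0.41.

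The regulators of mitotic transcription had a median of 0.20 over 20 genes. Foxm1 had 12.1 CPM in library 2 and 8.80 CPM in library 1 (0.46, 0.10 to 0.83), and Mybl2, the MuvB partner, 8.27 and 8.30 CPM (-0.0061, -0.40 to 0.39). The NF-Y subunit gene Nfyc was at 0.57, the MuvB subunit genes Rbbp4 and Lin37 at 0.33 and 0.23, and E2f1 and E2f3 at -0.18 and -0.30. Genes of S phase, the stage before G2, also had a median of 0.20 over 40 genes, and 1 of the 40, Dut, was at least 1.5-fold higher (0.61). Rrm1 and Fen1 followed at 0.41 and 0.40, with Pcna at -0.11 and Ccne1 at -0.28. S phase genes summed to 5093.6 CPM in library 2 and 4464.2 CPM in library 1, a log2 ratio of 0.19 (0.17 to 0.21).

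The ratios of the 40 genes depended on the UMI number of the cells. In cells with 2000 to under 4000 UMIs, the median log2 ratio over the 39 genes measured there was 0.15, against 0.12 over all genes, and 0 of 39 were at least 1.5-fold higher, against 7.06% of all genes. In cells with 4000 or more UMIs the median was 0.60 against 0.11, and 21 of 40 were at least 1.5-fold higher, against 7.02%. The log2 ratio was larger in the deeper cells for 39 of the 40 genes, by a median of 0.48, with Anln the exception. Ccnb1 differed most between the strata, at 0.89 (0.70 to 1.09) in the deeper cells and -0.021 (-0.33 to 0.29) in the shallower ones. Ube2c was at 0.75 (0.65 to 0.85) and 0.014 (-0.15 to 0.18), and Cdk1 at 0.55 (0.44 to 0.67) and -0.047 (-0.19 to 0.10). Cdca3, at 0.35 in the deeper cells, was at -0.25 (-0.45 to -0.056) in the shallower ones. In the shallower cells 5 genes had an interval above 0, as they also did in the deeper ones. Of these, Tacc3 and Bub3 also had intervals above the median of all genes in both strata. Tacc3 was at 0.64 and 0.42 (0.17 to 0.68) and Bub3 at 0.52 and 0.32 (0.20 to 0.44). The others were Mad2l1, at 0.33 (0.078 to 0.59) in the shallower cells, Cenpf at 0.24 (0.0073 to 0.46) and Mki67 at 0.23 (0.013 to 0.46). With 2911 cells drawn from each library to equal numbers per UMI class, the median of the 40 was 0.37 and 2 of 40 passed 1.5-fold, against 5.3% of all genes. UMIs per cell, which differ between the libraries, hold both sequencing depth and RNA per cell, and these cannot be told apart here.

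**Figure D2:**
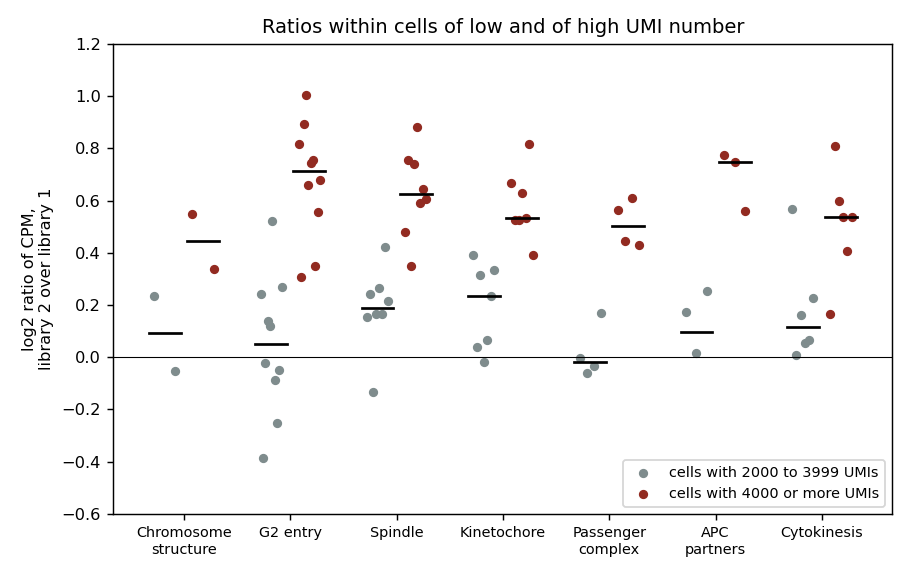
Log2 ratio of CPM, library 2 over library 1, of each gene (points) in cells with 2000 to under 4000 UMIs (grey) and in cells with 4000 or more (red), by role, with the median of each group as a black line. Ube2s is drawn in grey but left out of the grey median, since it had under 50 UMIs there. The red points all lie above 0. The grey points lie on both sides of 0 for G2 entry, spindle, kinetochore, passenger complex and chromosome structure genes, and above 0 for the partners of the anaphase-promoting complex and the genes of cytokinesis.

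To count cells rather than sum them, each cell with at least 2000 UMIs was thinned to 2000, which left 4016 cells of library 2 and 2444 of library 1 and set aside 554 and 809. A cell was called high when it held at least 10 UMIs of the 40 genes. High were 1217 cells of library 2, or 30.3% (28.9 to 31.8), and 395 cells of library 1, or 16.2% (14.7 to 17.7). At least 5 UMIs were held by 52.6% of cells in library 2 and 39.3% in library 1, and at least 20 by 8.27% and 3.19%. The median cell held 5 UMIs of the list in library 2 and 3 in library 1, the highest 68 and 38, and 11.1% and 14.4% held none. The threshold is a point on a continuous range, not a cell type. As a floor, among cells with no UMI of Mki67, Top2a or Cdk1 the other 37 genes together reached at least 10 UMIs in 5.50% of 1474 cells in library 2 and 2.67% of 1085 cells in library 1. In cells with one of these 3 genes the shares were 33.2% and 16.8%. These cells without the 3 genes are a rough floor, since no cell type that cannot divide was separated here.

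Within classes of UMIs per cell before thinning, the libraries had like shares of high cells below 4000 UMIs and unlike shares above. From 2000 to under 3000 UMIs the share was 7.26% (5.65 to 9.16) in library 2 and 7.33% (5.78 to 9.14) in library 1. From 3000 to under 4000 it was 17.6% (15.3 to 20.1) and 16.8% (14.1 to 19.7). From 4000 to under 6000 the shares were 40.4% (37.8 to 43.0) in library 2 and 27.9% (24.2 to 31.7) in library 1, and from 6000 to under 10000 they were 57.1% (53.2 to 61.0) and 26.7% (19.7 to 34.7). Above that only 47 cells of library 2 and 9 of library 1 remained, with 68.1% and 11.1% high. The share was higher in each class up to 10000 UMIs than in the one before it in library 2, while in library 1 the classes from 4000 UMIs on did not differ beyond counting error. With both libraries weighted to the same class sizes the shares were 26.9% in library 2 and 18.6% in library 1. Cells with at least 10 UMIs of the 40 S phase genes made up 38.2% (35.0 to 41.5) in library 2 and 46.03% (42.9 to 49.2) in library 1 from 2000 to under 3000 UMIs, and 66.9% (63.9 to 69.8) and 56.3% (52.7 to 60.0) from 3000 to under 4000. From 4000 to under 6000 they made up 60.6% (58.03 to 63.2) in library 2 and 43.9% (39.8 to 48.1) in library 1, and from 6000 to under 10000 they made up 43.5% (39.6 to 47.5) and 33.6% (26.0 to 41.8). The S phase share thus also differed between the libraries from 4000 to under 6000 UMIs, but it differed below 4000 UMIs as well, in opposite directions in the lowest class and the next.

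**Figure D3:**
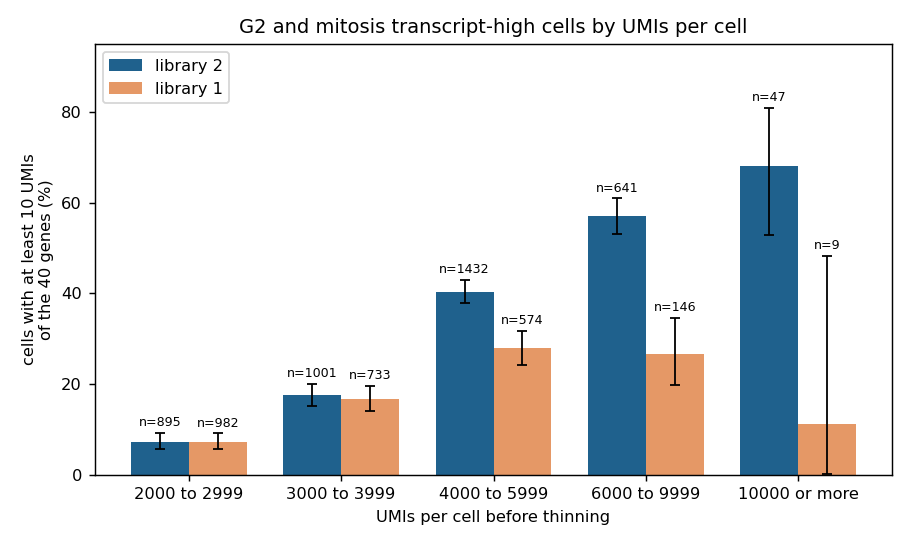
Percent of thinned cells with at least 10 UMIs of the 40 genes (bars, with exact binomial 95% intervals and the number of cells) by UMIs per cell before thinning, library 2 left and library 1 right in each pair. The bars of a pair are alike below 4000 UMIs, at 7.26% and 7.33% and at 17.6% and 16.8%, and apart above, at 40.4% and 27.9% and at 57.1% and 26.7%.

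The high cells were then divided by transcripts that mark the first steps of lineage choice: Dntt, the DNA polymerase of lymphoid progenitors, Mpo and Ctsg, granule enzymes of myeloid progenitors, and Hlf, a transcription factor of stem cells. Cells with a UMI of Mpo or Ctsg were high more often in both libraries at the minimum of 10 list UMIs. In library 2 the share was 42.2% (39.1 to 45.4) of 980 cells with such a UMI and 26.4% (24.9 to 28.1) of 3036 cells without, a difference of 15.8 percentage points (Newcombe interval 12.3 to 19.3). In library 1 it was 21.4% (18.2 to 24.7) of 637 cells and 14.3% (12.7 to 16.03) of 1807, a difference of 7.02 points (3.57 to 10.7). Cells with at least 3 such UMIs reached 50.2% in library 2 and 24.6% in library 1. Whether this difference is larger in library 2 was not tested. Thinned to 3000 UMIs with a minimum of 15, it was 7.49 points (3.93 to 11.1) in library 2 and 4.17 points (-0.065 to 8.52) in library 1, where the interval holds 0. Depth moved with it, since cells with Mpo or Ctsg had a median of 5015.5 UMIs in library 2 and 3825 in library 1 before thinning, against 3860.5 and 3111 in cells without. Within cells of 4000 or more UMIs the shares in cells with and without were 50.4% (46.7 to 54.1) and 43.8% (41.2 to 46.4) in library 2, and 32.2% (26.9 to 37.8) and 24.1% (20.2 to 28.5) in library 1. Within cells of 2000 to under 4000 UMIs they were 19.6% (14.97 to 24.97) and 11.6% (10.1 to 13.3) in library 2, and 11.8% (8.56 to 15.7) and 11.3% (9.64 to 13.1) in library 1. Depth was not equal within these ranges. From 4000 UMIs on, cells with and without had medians of 5681.5 and 5088.5 UMIs in library 2, and 5340.5 and 4878 in library 1. At a minimum of 20 list UMIs the difference between cells with and without Mpo or Ctsg was 0.538 points in library 2 and -0.919 in library 1, so it did not hold for the cells with the most mitotic transcripts.

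For Dntt the difference changed with the setting. At the minimum of 10 list UMIs it was within counting error. In library 2 it was 30.5% (28.4 to 32.7) of 1754 cells with a Dntt UMI and 30.2% (28.3 to 32.1) of 2262 cells without, a difference of 0.351 points (-2.50 to 3.23). In library 1 it was 17.5% (15.2 to 20.1) of 964 cells and 15.3% (13.5 to 17.2) of 1480, a difference of 2.26 points (-0.714 to 5.33). At matched UMIs the cells with Dntt had the higher share. Below 4000 UMIs it was 15.03% (12.8 to 17.5) with and 10.5% (8.65 to 12.6) without in library 2, and 13.8% (11.4 to 16.4) and 9.48% (7.70 to 11.5) in library 1, where the intervals touch. At a minimum of 20 list UMIs the difference was 5.16 points (3.42 to 6.97) in library 2 and 3.29 points (1.81 to 4.98) in library 1, while at a minimum of 5 it was -4.90 points (-8.004 to -1.79) and -3.02 points (-6.94 to 0.940). In library 1 it also left 0 when cells were thinned to 3000 UMIs with a minimum of 15 (4.82, 0.599 to 9.13) and without the 5% of cells with the most UMIs (3.14, 0.131 to 6.23). From 4000 UMIs on the share of high cells was 47.8% and 44.9% in library 2 and 31.1% and 26.0% in library 1, with overlapping intervals. Cells with Dntt were the shallower ones, with a median of 3901.5 UMIs in library 2 and 3044 in library 1, against 4270 and 3391.5 in cells without.

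Cells with an Hlf UMI were few, 334 in library 2 and 229 in library 1. Of these 26.0% (21.4 to 31.1) in library 2 and 14.4% (10.1 to 19.6) in library 1 were high, against 30.7% (29.2 to 32.2) and 16.3% (14.8 to 17.9) of cells without Hlf. The differences of -4.64 points (-9.31 to 0.531) in library 2 and -1.93 points (-6.20 to 3.41) in library 1 were within counting error. Under some other settings the interval left out 0. In library 2 it did so with at least 1000 genes per cell and under 5% mitochondrial UMIs (-6.43, -11.2 to -1.13). It also did so thinned to 1000 UMIs with a minimum of 5 (-6.26, -11.3 to -0.392). With at least 2 Hlf UMIs the difference was -24.04 (-28.9 to -9.70) in library 2 but 0.508 (-10.4 to 23.1) in library 1. In library 1 the interval left out 0 without the 5% of cells with the most UMIs (-7.41, -11.04 to -2.18). Under each of these settings the other library held 0. Both libraries held 0 under the remaining settings, such as another random seed (-1.75, -6.52 to 3.41 in library 2). Cells with Hlf and neither Dntt nor Mpo or Ctsg had the lowest share of the exclusive classes in library 2, at 18.8% (13.4 to 25.2) of 181 cells, and stood at 12.9% (7.86 to 19.7) of 139 cells in library 1. Cells with Mpo or Ctsg alone had the highest, at 43.3% (39.2 to 47.4) of 587 cells in library 2 and 22.6% (18.6 to 27.0) of 394 cells in library 1. Cells with both Dntt and Mpo or Ctsg came next, at 39.9% (34.6 to 45.3) of 336 cells and 19.8% (14.5 to 26.1) of 197. Their intervals overlap those of Mpo or Ctsg alone. Cells with Dntt alone stood between, at 28.0% (25.6 to 30.6) and 16.9% (14.2 to 19.9), and cells with none of the 4 transcripts at 25.9% (23.6 to 28.2) and 12.5% (10.4 to 14.8). In every one of these classes the share was higher in library 2 than in library 1, although for Hlf alone the intervals overlap. The classes also differed in depth before thinning. Median UMIs in library 2 and library 1 were 5398 and 4155.5 with Mpo or Ctsg alone, 3786 and 2969 with Dntt alone, and 3668 and 3166 with Hlf alone. The part of depth in the order of the classes was not tested.

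**Figure D4:**
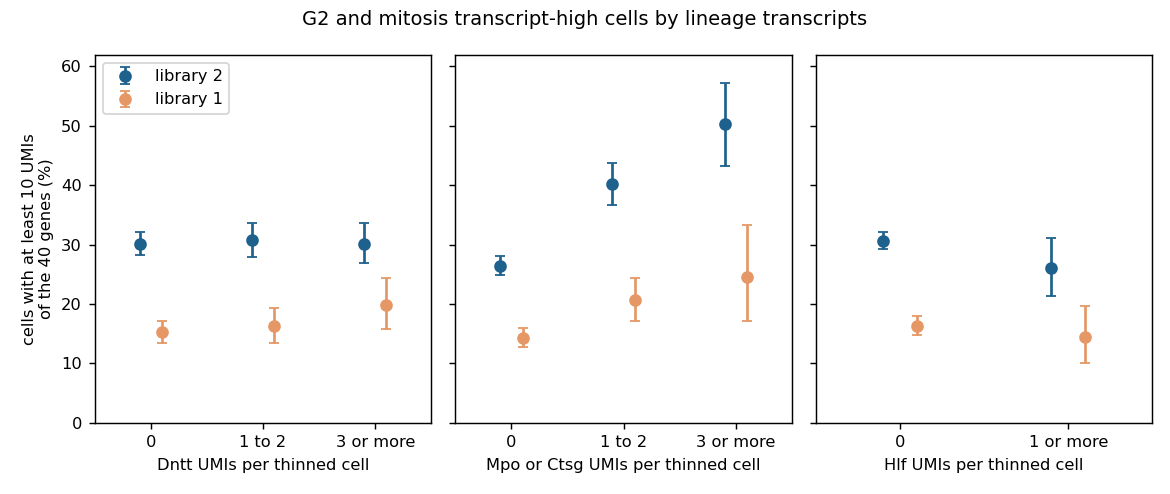
Percent of thinned cells with at least 10 UMIs of the 40 genes (points, with exact binomial 95% intervals) by the number of Dntt, of Mpo or Ctsg and of Hlf UMIs in the cell, library 2 in blue and library 1 in orange. With Mpo or Ctsg UMIs the points climb from 26.4% to 50.2% in library 2 and from 14.3% to 24.6% in library 1, whereas with Dntt UMIs they are 30.2%, 30.8% and 30.1% in library 2 and 15.3%, 16.2% and 19.8% in library 1.

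Over all high cells together the share of late mitotic transcripts did not differ between the libraries beyond counting error. Late mitotic genes made up 48.0% (46.9 to 49.1) of the UMIs of entry and late genes in high cells of library 2 and 48.8% (46.8 to 50.9) in library 1. In the other cells they made up 36.7% (34.8 to 38.5) in library 2 and 36.7% (34.4 to 38.9) in library 1. In high cells of 4000 or more UMIs the shares were 47.9% (46.7 to 49.2) and 51.3% (48.3 to 54.2). In those of 2000 to under 4000 UMIs the order was opposite, at 48.4% (45.9 to 50.9) and 46.6% (43.7 to 49.4). The intervals of each pair overlap, but the difference between the libraries within a stratum was not tested. In cells with at least 20 list UMIs the shares were 51.1% and 54.4%. Of the 40 genes taken one at a time, 38 had a share of the list's UMIs in high cells whose ratio between the libraries did not leave 1 by more than counting error. The other intervals were those of Mad2l1, with 1.24% of the list's UMIs in library 2 and 0.861% in library 1, and Tacc3, with 1.63% and 1.18%. Among 40 such intervals a few can leave 1 by counting error alone, and no allowance was made for this. Mad2l1 and Tacc3 are therefore not set apart from the other genes by these shares. Ube2c made up 9.14% in library 2 and 9.73% in library 1, and Top2a 9.59% and 10.4%.

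The genes differed in how far they were concentrated in high cells. For these folds, high cells were called for each gene by at least 10 UMIs of the other genes of the list. Those genes come from the same list, so the folds are a description of the order and not a finding of their own. Ube2c had 13.1 times as many UMIs per high cell as per other cell in library 2 and 14.3 times in library 1, Cenpa 10.4 and 9.84 times, and Plk1 8.89 and 8.27 times. At the other end Ube2s, with few UMIs, stood at 1.15 times in library 2 and 0.943 times in library 1. Next to it Bub3 stood at 1.99 and 1.96 times, and Mad2l1 at 2.07 and 1.22 times. Across the 40 genes the folds of the 2 libraries had a Pearson correlation of 0.94 and a Spearman correlation of 0.90.

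Genes found in cells with fewer S phase UMIs tended to have the larger ratios. The order in which the genes act in the cycle was not tested by this. For each gene the mean number of UMIs of the 40 S phase genes was taken over thinned cells that held a UMI of it, a measure that shares no gene with the list. It was lowest for Cenpa at 7.27, Cdc25b at 7.38, Ccnb2 at 7.84, Ube2c at 7.86 and Ccnb1 at 7.90, and highest for Tacc3 and Top2a at 10.5, Mad2l1 at 10.7 and Ube2s at 11.8. Over all thinned cells the mean was 10.5 in library 2 and 9.43 in library 1. The 20 genes with the lower values had a median log2 ratio of 0.89, and the 20 with the higher values 0.62. Across the 40 genes the log2 ratio and the S phase UMIs had a Pearson correlation of -0.75 and a Spearman correlation of -0.74. With S phase UMIs from library 2 alone the Pearson correlation was -0.72, and from library 1 alone -0.75. The log2 ratio also went with the fold between high and other cells of library 1 (Pearson correlation 0.72, Spearman correlation 0.76). High cells are called from the same list and made up 30.3% of library 2 and 16.2% of library 1. A gene concentrated in them thus has a larger ratio by construction, and this correlation is no separate result. A thinned cell with more UMIs of the 40 genes has fewer left for S phase genes. High cells held a mean of 8.30 S phase UMIs and other cells 11.4 in library 2, and 7.65 and 9.78 in library 1. Genes concentrated in high cells, which were more frequent in library 2, thus tend to have both low S phase UMIs and a large ratio. How much of the relation comes from this was not tested. The points also share both libraries and many of the same cells, so the relation with S phase UMIs is a description of these libraries. Tacc3 stood off it, at 0.80 with 10.5 S phase UMIs. By role, S phase UMIs were lowest in cells with genes of mitotic entry (median over genes 8.16) and partners of the anaphase-promoting complex (8.22), and highest in cells with genes of the passenger complex (10.1) and chromosome structure (10.1).

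**Figure D5:**
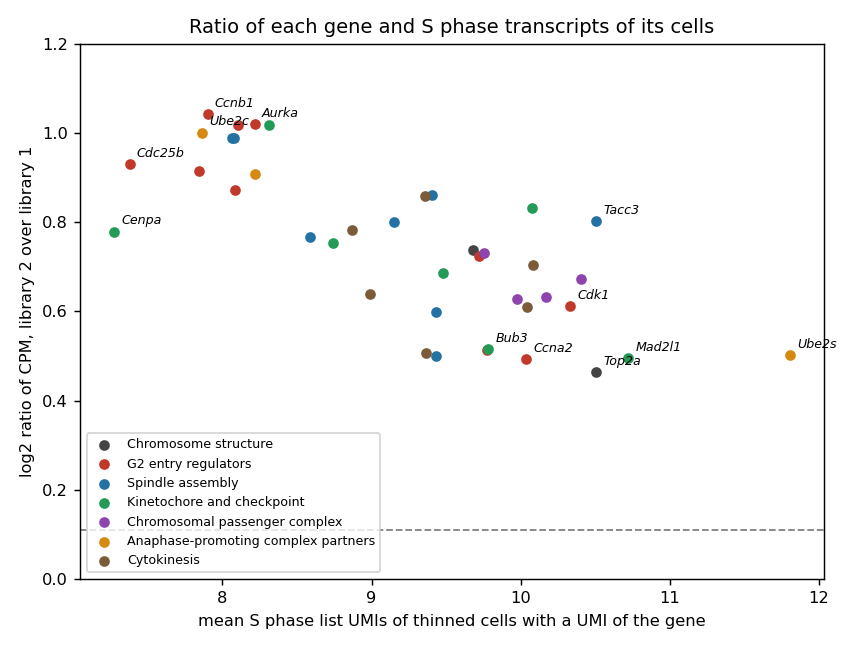
Log2 ratio of CPM, library 2 over library 1, of each gene against the mean S phase list UMIs of the thinned cells that hold a UMI of it, coloured by role (40 genes). The dashed line is the median of all genes (0.11). Genes of cells with few S phase transcripts, such as Ccnb1 at 7.90, lie at the top, and genes of cells with many, such as Top2a at 10.5 and Mad2l1 at 10.7, lie lower.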

How the data were processed

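The authors deposited 1 matrix of UMI counts (whole numbers, not normalized) for both samples, with gene symbols and cell barcodes as other, non-numeric columns. Per the submitters' processing notes, Cell Ranger 1.1 and build mm10 were used, and other steps are not stated there. The members and gene lists were chosen with earlier results of these data known. All 40 members may be named. Of each other list the 4 largest and 2 smallest ratios among genes with at least 200 UMIs are named, with Foxm1 and Mybl2. 1 further gene that this rule takes is not reported here.

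UMIs of kept cells were summed per library and scaled to CPM. Levels carry exact Poisson intervals, ratios exact conditional Poisson intervals and shares exact binomial (Clopper-Pearson) intervals, all at 95%. No p-value was computed, since each genotype has 1 library. Shares of cells were taken after thinning at random to 2000 UMIs. The 50-base search covered the last 300 bases of each gene's longest transcript against 141767 GENCODE M21 transcripts. TMM factors came from edgeR 4.0.16 in R 4.3.3, as an alternative scaling. Other steps used Python 3.11.15, numpy 2.4.6, scipy 1.17.1, pandas 2.3.3, statsmodels 0.14.6 and matplotlib 3.10.9, and were tested on simulated data. No doublet caller was run. An alternative left out the 5% of cells with the most UMIs.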

Additional observations from a re-analysis of the deposited data

How the results depend on the processing

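Of 140 results under other settings, 102 stayed within the band set for them, 37 moved further and 1 reversed. The band was counting error for shares, the typical counting error of a single gene for median ratios and 1.5 times for counts of genes. For medians this band is wide. The members' median of 0.75 counted as unmoved at 0.60 with thinned cells, and at 0.62 with at least 1000 genes and under 5% mitochondrial UMIs. No paired analysis was possible because there is 1 library of each genotype, and for the same reason no replicate could be left out. TMM or median-of-ratios scaling moved the median of all genes to 0.018 or 0.020 and that of the members to 0.65 or 0.66, with 25 past 1.5-fold under either (3.17% of all genes).

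Members past 1.5-fold numbered 21 of 39 with thinned cells, against 6.28% of all genes. With cells drawn to equal numbers per UMI class they numbered 2 of 40, against 5.3%. They numbered 0 of 39 in cells of 2000 to under 4000 UMIs (7.06% of all genes) and 21 of 40 in cells of 4000 or more (7.02%). The last 2 settings were chosen after seeing the data. Drawn cells gave medians of 0.37 for the members, 0.49 for entry and 0.32 for late genes, and the shallower cells 0.15, 0.049 and 0.11.

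The share of high cells in library 2 and library 1 was 52.59% and 39.28% at a minimum of 5 list UMIs, 8.267% and 3.191% at 20, 36.49% and 20.59% thinned to 3000 with a minimum of 15, 25.15% and 11.95% without Mki67 and Top2a, and 26.91% and 18.64% with equal class sizes. It was 17.8% in library 1 with at least 1000 genes per cell. The late share was 45.99% and 44.84% at 5 UMIs, and 51.1% and 54.35% at 20.

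Differences by gate moved as follows, in percentage points. Dntt gave -4.901 in library 2 and -3.025 in library 1 at 5 UMIs, 5.162 and 3.295 at 20, 0.602 and 4.817 thinned to 3000, and in library 2 -2.88 thinned to 1000. Mpo or Ctsg gave 20.87 and 18 at 5 UMIs, 0.5378 and, reversed, -0.9193 at 20, 7.487 and 4.169 thinned to 3000, and in library 2 20.69 thinned to 1000. Hlf gave 0.78 at 20 UMIs and -24.04 with 2 Hlf UMIs in library 2, and -7.408 in library 1 without the 5% of cells with the most UMIs. The causes were not tested. Cells with at least 20 list UMIs numbered 332 in library 2 and 78 in library 1.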

Other observations

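High cells also differed from other cells in transcripts that are not in the list. Per 100 thinned cells, high cells held 43.2 UMIs of Ly6a, the gene of the sorting marker Sca-1, and other cells 68.5 in library 2 (log2 ratio -0.66, -0.81 to -0.52), and 37.7 and 67.3 in library 1 (-0.84, -1.09 to -0.59). Irf8, a transcription factor of monocyte and dendritic progenitors, stood at 36.2 in high and 28.4 in other cells of library 2 (0.35, 0.18 to 0.52), and at 32.7 and 21.8 in library 1 (0.59, 0.29 to 0.87). Mpo and Ctsg together stood at 75.5 and 43.1 in library 2 (0.81, 0.68 to 0.93), and at 72.2 and 49.3 in library 1 (0.55, 0.35 to 0.74). Flt3, the receptor used in the sort, did not differ beyond counting error, at 29.3 and 29.4 in library 2 (-0.0034, -0.19 to 0.18) and 25.6 and 25.4 in library 1 (0.011, -0.31 to 0.32). Dntt went opposite ways, with a log2 ratio of -0.11 (-0.20 to -0.026) in library 2 and 0.25 (0.11 to 0.39) in library 1, and the difference between the libraries was not tested.

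Foxm1 had 3.94 UMIs per 100 high cells and 1.39 per 100 other cells in library 2 (1.501, 0.86 to 2.15), and 5.06 and 1.12 in library 1 (2.17, 1.23 to 3.10). Mybl2 was at 1.40 and 2.07 in library 2 (-0.57, -1.44 to 0.23). The 67 further G2 and mitosis genes, which did not define the high cells, summed to 1758 UMIs per 100 high cells and 807.1 per 100 other cells in library 2, and to 1696 and 763.8 in library 1, log2 ratios of 1.12 and 1.15. High cells had a median of 5179 UMIs and other cells 3668 in library 2 before thinning, and 4017 and 3122 in library 1, and the part of this depth in these ratios was not tested.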
